A study of Oryza sativa with 9 samples.

Results

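The stretch described here is a run of neighbouring genes on rice chromosome 11 in which many transcripts differed between leaves that overexpress OsCOMT and wild-type leaves. It holds all rows of the deposited gene table with identifiers from Os11g0197600 to Os11g0227100, which are 195 of 37858 genes. The members were selected on their measured values, and the ends are the outermost of a cluster of genes that passed the test in overexpression against wild-type leaves. The differences between these genotypes are therefore given here as a description, with no test. Leaves of rice (Oryza sativa) were sampled 85 days after sowing and their RNA was sequenced, with 3 libraries for each of 3 genotypes. The groups are wild-type plants (WT), plants overexpressing OsCOMT (OE), a gene for caffeic acid O-methyltransferase, an enzyme of melatonin and lignin synthesis, and plants mutated in that gene (the mutant). The sample titles of WT and OE carry a further number that the labels do not explain and the mutant titles follow another pattern, so whether the groups differ in something besides genotype is not given. The labels give neither the cultivar, the promoter of the transgene, the type of mutation nor the number of plant lines behind a genotype. Separate plants behind the replicates are not stated, and p-values then measure only the spread between these libraries, which may be technical. In whole leaves, fewer cells of a type and less RNA per cell cannot be told apart.

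Rice identifiers of this kind number the annotated loci along each chromosome, so members with adjacent identifiers are neighbours. Genes that lie close together on a chromosome tend to be inherited together. Rice chromosome 11 is known for clusters of disease resistance genes of the nucleotide-binding, leucine-rich repeat type, which differ between cultivars in number and sequence. The sources used here pair none of the 195 identifiers with a product, so members are called by identifier, and which of them belong to such families is not given. OsCOMT itself lies on chromosome 8, outside the stretch.

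The deposited values are FPKM (fragments mapped to a gene, divided by its length and by the size of the library), and they resolve into whole reads out of totals of 10674819 to 11809530 per library. The identifier that general knowledge pairs with OsCOMT was at 228 to 259 FPKM in WT, at 1945 to 3162 FPKM in OE and at 226 to 458 FPKM in the mutant. Of 6 photosynthesis genes listed from general knowledge, the lowest value in any library was 20.2 FPKM, and of 3 seed storage genes the highest was 2.38 FPKM, beside the label of leaf. One of the 6 photosynthesis genes was at 111 to 227 FPKM in WT and OE and at 1978 to 2940 FPKM in the mutant. Another spanned 322 to 653 FPKM in WT, 327 to 722 in OE and 839 to 928 in the mutant. The mutant range of a further gene, 290 to 623 FPKM, ran below the OE range, 921 to 1951, and overlapped WT, 463 to 1794. One more, at 2737 to 3034 FPKM in the mutant, exceeded WT, 2347 to 2365, but overlapped OE, 2085 to 2853. For the others, mutant ranges overlapped those of both WT and OE. The part of these genes in the mutant results was not tested. Of the 195 members, 54 had no read in any library, 56 had reads but lay below the level tested (a mean of 1 FPKM over all libraries), and 85 were tested. The tested members made up 43.6% of the stretch, against 52.4% of the whole table, and had a median level of 12.8 FPKM against 13.8 FPKM over all genes tested. Their median length, as recovered from the FPKM values, was 1772 bases against 1559 bases. Among the 85 were 10 whose WT mean was under 1 FPKM, 7 of them called in OE, and 2 whose OE mean was, 1 of them called, which were tested because of their level in another genotype.

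Of the 85 tested members, 21 were past the threshold in OE against WT (adjusted p under 0.05 over all genes in limma), 16 higher and 5 lower. Over all 19850 genes tested the share was 0.232%, with 0.171% higher and 0.0605% lower, and since these calls set the ends of the stretch nothing is read from the difference. WT and OE libraries did not overlap for 38 of the 85, or 44.7%, against 16.4% over all genes tested. The median size of the log2 fold change, without its sign, was 0.27 in the stretch and 0.12 over all genes. The 195 rows before the stretch held 100 tested genes and the 195 rows after it 81. None of either passed in limma (0 and 0), 11 and 9 had an unadjusted p under 0.05, and the median size of the change was 0.12 on both sides. The ends lie at the outermost calls, so this lack of calls follows from how they were set and nothing is read from it. Outside the stretch the largest number of calls in any 195 consecutive rows of 1 chromosome was 2. The stretch was chosen as a cluster of such calls, so nothing is read from that number either.

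In 3 equal parts of 65 rows, the calls numbered 6 higher and 1 lower of 30 tested members in the first, 1 higher and 1 lower of 25 in the second, and 9 higher and 3 lower of 30 in the third. Finer blocks were drawn after the calls were seen, with called members as their edges, so their counts are partly fixed by that choice. From Os11g0197600 to Os11g0206000, 7 of 22 tested members differed, 6 higher and 1 lower in OE. From Os11g0224900 to Os11g0227100, 11 of 14 tested members differed, 9 higher and 2 lower. The 124 rows between them held 49 tested members, of which 1 was higher, 2 were lower and 46 did not pass. At 13 rows, the run from Os11g0224900 to Os11g0226800 was the longest without an uncalled tested member, with 10 calls in a row. Elsewhere called members stood alone or in a pair between tested members that were not called.

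**Figure D1:**
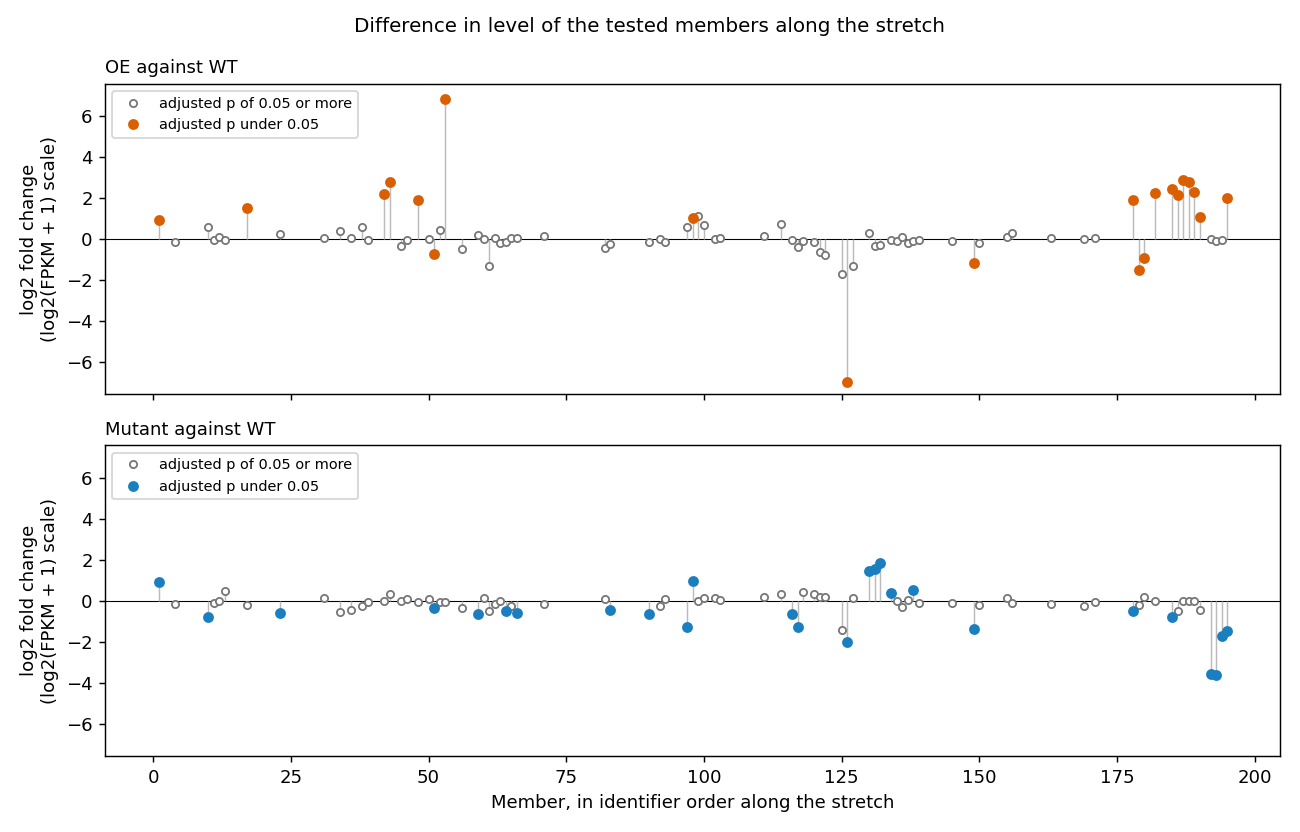
The log2 fold change of each tested member is plotted against its order along the stretch, for OE against WT above and the mutant against WT below, with filled points at an adjusted p under 0.05. In OE the filled points reach 6.83 and -6.99, while the mutant panel has its lowest points, -3.58 and -3.65, close to the right end.

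Some members had reads in OE and almost none in WT. With reads in OE defined as at least 5 in each library and silence in WT as at most 3 reads over its 3 libraries, there were 8 such members, against 0.0502% of the table (19 of 37858 genes). The mutant was at 0 reads for 7 of the 8. The strongest was Os11g0206000, at 128, 104 and 119 FPKM in the OE libraries. WT held 0, 2 and 0 reads of it, and the mutant held none. The OE level was 3556-fold that of WT, with a 95% counting interval of 984 to 29368, and at least 2250-fold that of the mutant, taking 3 reads over the mutant libraries as the limit of a count of 0. The nearest tested members on either side, given here as neighbours and not by the naming rule, Os11g0205900 and Os11g0206200, were not called, with means of 11.6 and 3.86 FPKM in WT and 15.9 and 2.42 FPKM in OE.

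A second set of silent members lay together near the end of the stretch. Os11g0225300 had 0 reads in every WT and mutant library and 3.49, 3.86 and 3.98 FPKM in OE, from 177, 179 and 195 reads. Os11g0226400, at 0 in the same 6 libraries, was at 6.65, 5.98 and 6.32 FPKM in OE. Os11g0226550 was at 6.09, 4.84 and 7.06 FPKM in OE, and Os11g0226700 at 3.29, 4.47 and 4.18 FPKM, again with no read elsewhere. These 4 genes thus had reads in all 3 OE libraries and in none of the other 6. Their OE levels were at least 186-fold, 171-fold, 151-fold and 200-fold those of WT in the order named. Their lengths as recovered from the FPKM values are 4296, 2356, 2183 and 4397 bases. A WT level of 3 reads over the 3 libraries would then be 0.0203, 0.037, 0.0399 and 0.0198 FPKM.

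The remaining 3 of the 8 lay in the first part of the stretch. Os11g0203400 had 25, 71 and 96 reads in OE and 0 in the other 6 libraries, at least 64.8-fold more than WT. Its OE level differed most among replicates, at 1.46, 4.53 and 5.79 FPKM, with replicate 1 lowest. Os11g0198250 had 5, 10 and 6 reads in OE and 0 elsewhere. Os11g0198200 had 19, 16 and 17 reads in OE, 2 in all of WT and 4 in all of the mutant, and was 26.3-fold higher in OE than in WT (95% counting interval 6.93 to 223). Os11g0198250 and Os11g0198200 lay below the level tested. The intervals and limits cover counting error only.

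The reverse pattern, reads in WT and silence in OE, was found for 2 members, against 0.0158% of the table (6 genes). Os11g0214900 was at 122, 107 and 153 FPKM in WT and had 0 reads in the OE libraries, at least 1031-fold lower. The mutant kept it at 31.6, 19.4 and 47.3 FPKM, below every WT library, and against WT its log2 level fell by 2.0 (SE 0.26, limma adjusted p = 0.00031). The gene was picked by its reads in these WT libraries, so this p-value is not independent of that choice. Os11g0200000 was low throughout, with 6, 6 and 8 reads in WT, none in OE and 6, 5 and 6 in the mutant. WT had 1.12-fold its level in the mutant, with a counting interval of 0.555 to 2.27 that includes no difference. Of the 2 genes, then, neither was silent in the mutant.

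**Figure D2:**
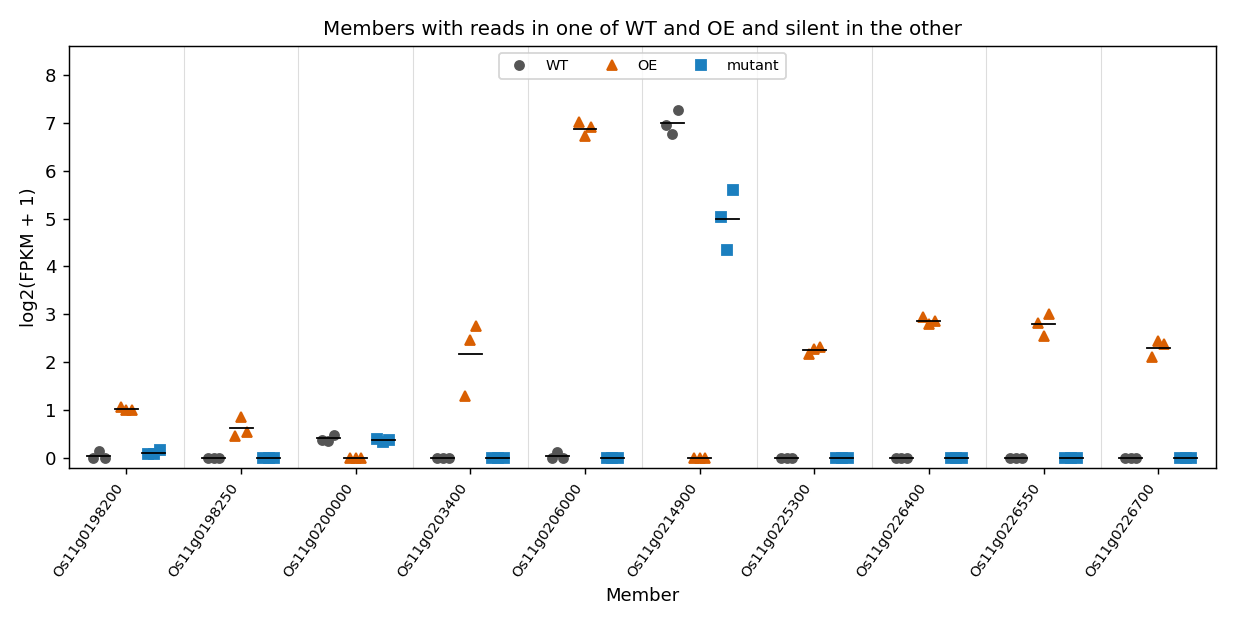
Points are the log2(FPKM + 1) of each library for the 10 members with reads in one of WT and OE and silence in the other, with a bar at each group's mean. The mutant sits at or near 0 wherever OE alone has reads, and above 0 for both members that OE lacks.

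Other members differed in level without being silent in either genotype. Among those that were higher in OE, Os11g0204100 was at 1.66, 1.49 and 1.96 FPKM in WT, 21.6, 15.4 and 16.8 in OE and 2.03, 2.72 and 2.47 in the mutant. Every OE library was thus above every library of the other genotypes, and the OE mean was 10.5-fold that of WT. Os11g0200950 was at 1.82 ± 0.307 FPKM in WT and 7.21 ± 0.814 in OE (SD, n = 3), 3.97-fold higher, with the mutant at 1.41 ± 0.0709. Os11g0205300 had 0, 5 and 0 reads in WT, 25, 30 and 19 in OE and 0, 0 and 3 in the mutant. It missed the definition of silence in WT through 1 library.

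Lower in OE were Os11g0205800 and Os11g0220300, beside Os11g0214900 and 2 neighbours near the end of the stretch. Os11g0205800, which is named because it completes the 21 calls, was at 18.5 ± 1.22 FPKM in WT, 10.6 ± 1.01 in OE and 14.3 ± 0.505 in the mutant (SD, n = 3), with no overlap between the 3 genotypes. Os11g0220300 was at 4.73, 4.90 and 4.23 FPKM in WT, 1.47, 2.09 and 1.07 in OE and 0.909, 1.5 and 1.1 in the mutant. Here OE and mutant libraries overlapped, and both lay below WT.

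In the run of 10 calls, 1 higher member was followed by 2 lower and then by 7 higher ones. It opened with Os11g0224900, at 1.12, 0.794 and 1.17 FPKM in WT, 6.20, 6.19 and 7.46 in OE and 0.384, 0.511 and 0.346 in the mutant. The next 2 genes were lower in OE. Os11g0225000 was at 10.7 ± 1.85 FPKM in WT, 3.07 ± 0.542 in OE and 9.07 ± 0.650 in the mutant (SD, n = 3). Os11g0225100 was at 17.7, 18.7 and 16.6 FPKM in WT and 8.56, 8.71 and 8.72 in OE, 2.04-fold lower, with 22.0, 21.3 and 18.6 in the mutant. The silent-in-WT gene Os11g0225300 followed, and then Os11g0226201, at 5.54, 6.37 and 4.40 FPKM in WT, 30.0, 34.3 and 36.4 in OE and 2.41, 2.54 and 3.02 in the mutant. For this gene the 3 genotypes did not overlap, with OE highest and the mutant lowest. Os11g0226301 was at 15.0 ± 4.57, 68.1 ± 6.56 and 10.6 ± 3.67 FPKM in WT, OE and the mutant, and Os11g0226800 at 1.37 ± 0.132, 4.07 ± 0.644 and 0.758 ± 0.300 FPKM (SD, n = 3).

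Os11g0226301 and Os11g0226201 could share reads if their models overlap, which the table does not show. The FPKM of the first was 2.03 to 4.70 times that of the second over the 9 libraries.

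**Figure D3:**
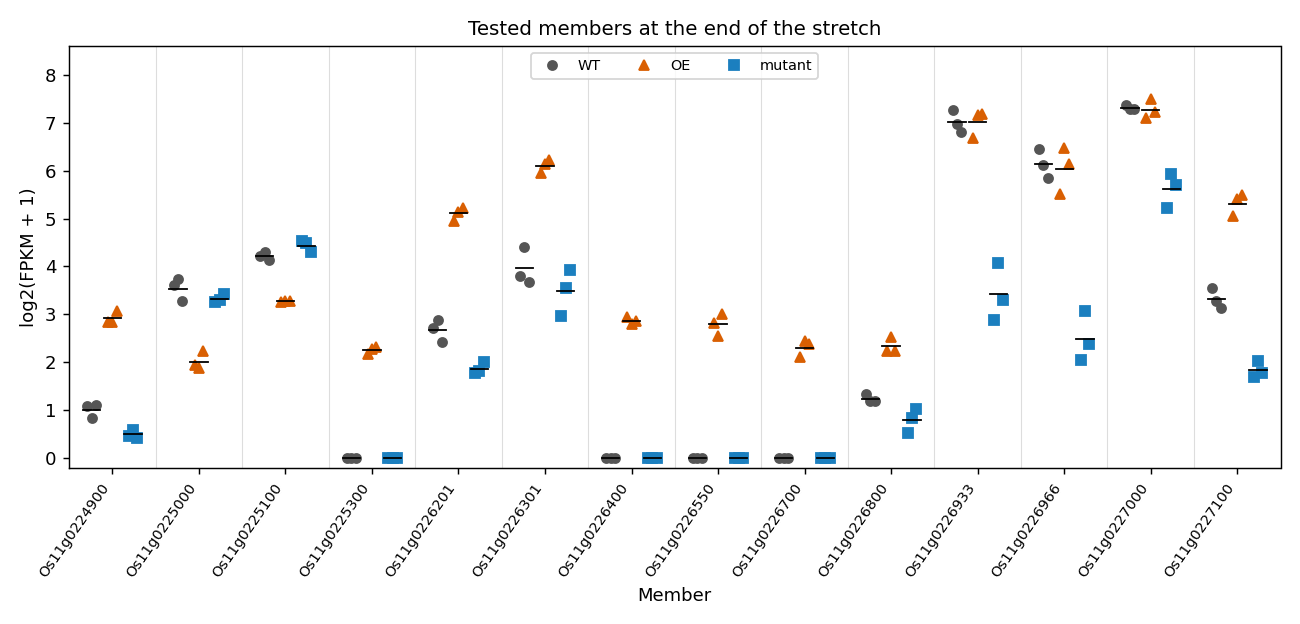
Points are the log2(FPKM + 1) of each library for the 14 tested members from Os11g0224900 to Os11g0227100, with a bar at each group's mean. OE stands above WT for 9 members and below it for 2, while for Os11g0226933, Os11g0226966 and Os11g0227000 WT and OE overlap and the mutant lies below both.

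The first and last members themselves were called. Os11g0197600 was at 7.79, 7.83 and 8.22 FPKM in WT, 15.8, 15.4 and 16.6 in OE and 17.4, 18.4 and 12.8 in the mutant. Os11g0227100 was at 10.7, 8.68 and 7.81 FPKM in WT, 32.0, 41.3 and 44.0 in OE and 2.23, 3.08 and 2.42 in the mutant. At the left end OE and mutant thus lay above WT together, while at the right end they lay on opposite sides of it. Just outside, Os11g0197466 had no read and Os11g0197500 had a mean of 0.189 FPKM in WT and 0.310 in OE. Beyond the right end, Os11g0227200 was at 10.4 ± 0.388 FPKM in WT and 9.59 ± 1.73 in OE (SD, n = 3), and Os11g0227250 at 0.628 and 0.768 FPKM. Inside the ends, Os11g0197725 is the second member and Os11g0227000 the last but one, and the latter was at 158 ± 5.29 FPKM in WT and 154 ± 22.7 in OE.

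Between the called members lay many at close levels in WT and OE. Of the 64 tested members that did not pass, 52 had OE means within 1.5-fold of WT. Over all 64, the ratio of the OE mean to the WT mean ran from 0 to 3.69, with a median of 0.974. The stretch's most abundant transcript, Os11g0209000, was at 1222, 1103 and 996 FPKM in WT and 984, 928 and 911 in OE, and the log2 fold change was -0.23 (SE 0.14). Os11g0220800 was at 124 FPKM in WT and 153 in OE (log2 fold change 0.29). Os11g0199200 was higher in each OE library, at 308, 366 and 400 FPKM against 243, 249 and 215 in WT, but did not pass. Os11g0210500, the next tested member after the called Os11g0210300, was at 1.13 FPKM in WT and 3.48 in OE and did not pass either. In all, 17 of the 64 uncalled members had groups that did not overlap between WT and OE. Over all genes tested, called or not, the share without overlap was 16.4%, and nothing is read from the count. A lack of a call does not show that the level was the same.

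**Figure D4:**
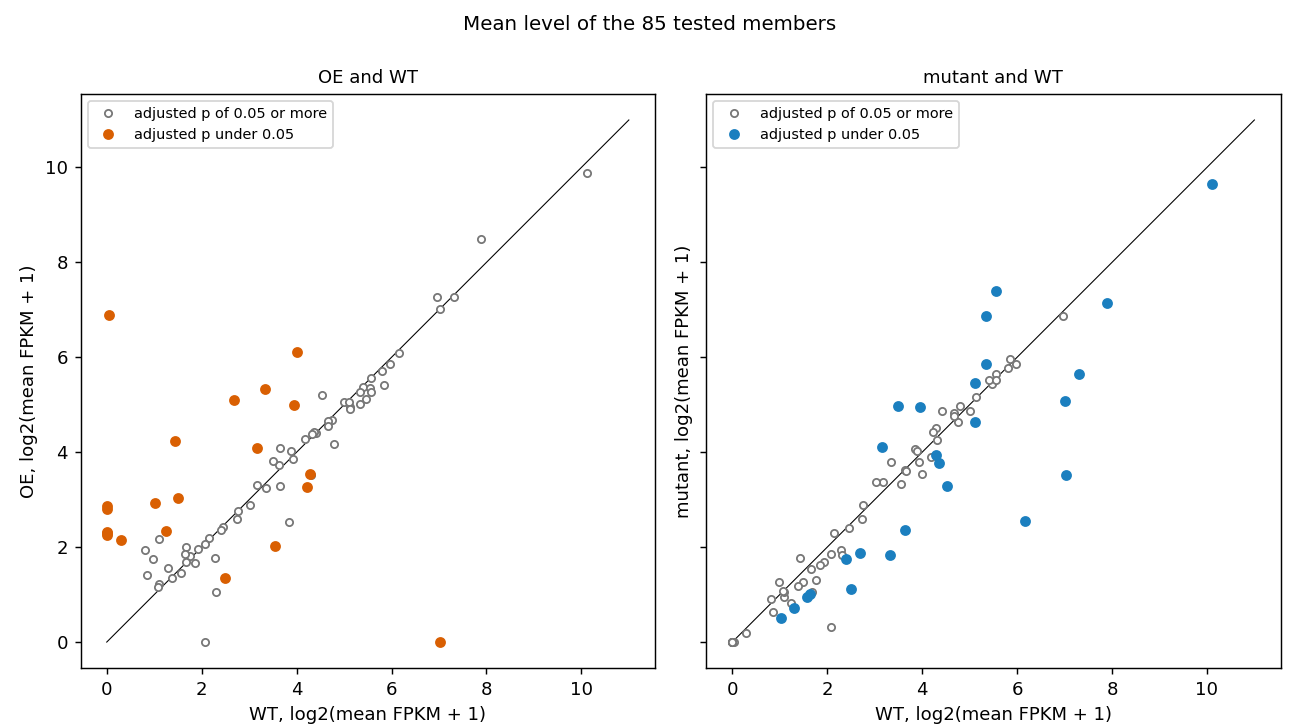
The mean level of each of the 85 tested members in OE (left) and the mutant (right) is plotted against that in WT, as log2(mean FPKM + 1), with filled points at an adjusted p under 0.05 and a line at equal levels. Most open points lie near the line in both panels, and filled points in OE include members at or near 0 on either axis.

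The comparison of the mutant with WT is not the one that chose the stretch, and it was tested. It is not fully independent of that choice, since it shares the WT libraries, and the mutant libraries entered the joint fit through its variance and its filter. With only WT and OE in the fit, 17 members rather than 21 passed in OE. Of the 85 members, 26 passed, 7 higher and 19 lower in the mutant (limma, adjusted over all genes), which is 30.6% against 42% of all genes tested (19.6% higher and 22.4% lower). Groups did not overlap for 36 members, or 42.4%, against 55.4% over all genes, and the median log2 fold change was -0.08 against -0.01. The 85 include 5 members with reads in OE alone, which were at 0 in both of these groups. Of the 22 tested members from Os11g0197600 to Os11g0206000, 1 was higher and 3 were lower. The middle held 6 and 10 of 49, and the block from Os11g0224900 on 0 and 6 of 14. These blocks were drawn after the OE calls were seen, and nothing is read from their counts.

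The members that rose most in the mutant were neighbours in the middle of the stretch. Os11g0216300 was at 40.0, 38.0 and 60.4 FPKM in WT, 35.5, 38.6 and 38.0 in OE and 208, 153 and 142 in the mutant, so that its log2 level was 1.85 above WT (SE 0.19, adjusted p = 6.2e-05 in limma). Os11g0216100 went from 34.0, 38.4 and 46.3 FPKM to 128, 112 and 109 (log2 fold change 1.54, SE 0.17, adjusted p = 0.00012), with OE at 38.6, 32.0 and 23.6. Os11g0216000 went from 10.3 ± 2.67 to 30.3 ± 4.72 FPKM (SD, n = 3), a change of 1.48 (SE 0.22, limma adjusted p = 0.00058), with OE at 13.0 ± 3.54. For these genes every mutant library lay above every other library, whereas WT and OE overlapped. Os11g0216400 and Os11g0218000, outside the naming rule and chosen after their values were seen, rose by 0.36 and 0.51. All of these genes were grouped after their values were seen. Higher calls in the mutant made up 19.6% of all genes tested, and nothing is read from the group.

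Os11g0197600 and Os11g0210300 complete the 7 that rose in the mutant. Os11g0210300 was at 14.3, 13.7 and 15.7 FPKM in WT, 26.1, 31.3 and 35.2 in OE and 27.4, 31.0 and 31.2 in the mutant, with log2 levels above WT by 1.03 in OE and by 0.99 in the mutant (SE 0.12 for the latter, adjusted p = 0.00015 in limma). For Os11g0197600 these differences were 0.92 in OE and 0.93 in the mutant (SE 0.13 for the latter, adjusted p = 0.00038 in limma). Both comparisons share the WT libraries.

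The 2 members that fell most in the mutant lay near the right end, and the third was Os11g0214900, described above, in the middle of the stretch. Os11g0226933 was at 152, 124 and 110 FPKM in WT, 102, 141 and 144 in OE and 6.43, 15.8 and 8.90 in the mutant, and its log2 level fell by 3.58 in the mutant (SE 0.27, limma adjusted p = 1.3e-05). Os11g0226966 went from 70.6 ± 15.4 to 4.89 ± 2.22 FPKM (SD, n = 3), a change of -3.65 (SE 0.30, limma adjusted p = 2e-05), with OE at 67.1 ± 21.7. Its FPKM was 0.436 to 0.623 times that of Os11g0226933 in the 9 libraries, and whether their models share reads is not given. Os11g0227000 fell by 1.70 (SE 0.17, adjusted p = 6e-05 in limma), from 164, 155 and 156 FPKM to 36.2, 59.6 and 51.1. The last member, Os11g0227100, fell by 1.49 (SE 0.16, limma adjusted p = 8.4e-05), and the first row outside, Os11g0227200, by 1.22 (limma adjusted p = 0.00048). These 5 consecutive identifiers, grouped after their values were seen, were all lower in the mutant, while in OE 1 of them, Os11g0227100, was called. Lower calls in the mutant made up 22.4% of all genes tested, and 26 of the 81 genes tested in the 195 rows after the stretch. Nothing is read from the run.

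Of the members that were called in OE, Os11g0220300 fell by 1.38 in the mutant (SE 0.18, limma adjusted p = 0.00025), and Os11g0226201 and Os11g0224900 fell by 0.81 and 0.52 (limma adjusted p = 0.0014 and 0.016). For every member called in OE, the same WT libraries entered that call, so its mutant p-value is not independent of how it was picked. Os11g0224900 missed the threshold without WT replicate 1 or WT replicate 3 (limma adjusted p = 0.054 and 0.053). Os11g0225100, Os11g0225000, Os11g0204100 and Os11g0200950 did not pass in the mutant, with log2 fold changes of 0.21 (SE 0.09), -0.21 (SE 0.15), 0.33 (SE 0.15) and -0.22 (SE 0.13). Without mutant replicate 3, Os11g0225100 and Os11g0226301 passed, at 0.28 and -0.70 (limma adjusted p = 0.045 and 0.048), and so did Os11g0226800, at -0.56 (limma adjusted p = 0.033). Os11g0199200 fell by 0.77 (SE 0.17, limma adjusted p = 0.0050) and Os11g0209000 by 0.46 (SE 0.14, limma adjusted p = 0.023), and both were uncalled in OE. Os11g0209000 missed it without WT replicate 1, WT replicate 2 or mutant replicate 2 (limma adjusted p = 0.089, 0.065 and 0.083). The 2 other members that rose changed by 0.36 and 0.51, and the 14 lower members outside the 5 of smallest adjusted p had log2 fold changes of -2.0 to -0.35.

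Between the mutant and OE, which shares the OE libraries with the contrast that set the ends, 45 of the 85 members passed, 14 higher and 31 lower in the mutant. This was 52.9%, against 43.4% of all genes tested (20.5% higher and 22.9% lower), and since the OE values helped to choose the members nothing is read from the difference. The extremes were Os11g0206000, with a log2 fold change of -6.88, and Os11g0214900, with 4.99. For Os11g0197600 and Os11g0210300 it was 0.01 and -0.04, while for Os11g0227100 it was -3.48 and for Os11g0226201 -3.24.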

How the data were processed

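The authors deposited FPKM per gene for the 9 libraries used here. 1 further per-sample column matched no sample and was not used. Build IRGSP-1.0, Cuffdiff and Bowtie 0.12.2 appear in the submitters' processing notes, without their role. From the steps between values, the read number of each of the 30062 genes above 0 was recovered as a whole number (relative tolerance 3e-07). Library totals followed because counting lengths then came out whole to 0.02 bases, for all 141 members with reads. Replicates of a genotype differed beyond counting noise (chi-square per gene 6.51 to 17.7).

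Values were transformed as log2(FPKM + 1) and compared two-sided with limma 3.58.1 (R 4.3.3; eBayes, trend on), fitting the 9 libraries jointly without covariates. Genes averaging 1 FPKM or more, 19850 in all, entered the fit and the Benjamini-Hochberg adjustment. The code was tested on simulated data. Fold changes on this scale understate those of low genes.

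The members, the lists and the tests were chosen with earlier results of these data known. Named are all members silent in one of WT and OE, up to 12 other OE calls by size, 2 rows on each side of both ends, the 6 most abundant others, up to 5 mutant calls in each direction and 4 listed identifiers. Members named outside this rule are marked as such. Gene names are not printed because the RefSeq table of ASM3414082v1 matched 0 of the 195 identifiers. Other settings tried were a pseudocount of 0.1 or 5, a filter of 5 FPKM or none, quantile normalization, fits of only 2 groups, no trend, a replicate block, each library left out, other limits for reads and silence, and, added after seeing the data, limma voom on recovered reads.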

Additional observations from a re-analysis of the deposited data

How the results depend on the processing

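The count of members past the threshold in the mutant against WT, 26 as reported, was 20 to 27 under the other settings and 21 to 30 on leaving out 1 library at a time, with 7 or 8 higher throughout. For OE against WT the 21 calls became 11 when a mean of 5 FPKM was required, which left 53 members tested, and 14 to 19 without single libraries. For the mutant against OE the 45 calls became 29 with that filter, 58 of 141 tested members with no filter, and 36 to 46 without single libraries. Members with reads in OE and silence in WT numbered 8, and 6 to 10 under the alternatives. Those with reads in WT and silence in OE went from 2 to 1 with at least 10 reads required in each library, and to 1 with FPKM limits. They were 2 to 3 without single libraries, 3 without WT replicate 3. Of 30 named members tested in the mutant against WT, 24 kept their side of the threshold wherever tested, and 0 reversed. Some were not tested under every alternative. Members with 0 reads in both WT and the mutant could not cross or reverse, so their place among the 24 shows no stability. Os11g0224900 lost its call with a pseudocount of 5, with quantile normalization and without WT replicate 1 or 3 (adjusted p = 0.073, 0.1, 0.054 and 0.053 in limma). Os11g0209000 lost it with no filter and without WT replicate 1, WT replicate 2 or mutant replicate 2 (adjusted p = 0.097, 0.089, 0.065 and 0.083). Os11g0204100 gained a call with quantile normalization (limma adjusted p = 0.039), Os11g0225100 and Os11g0226301 without mutant replicate 3 (0.045 and 0.048), and Os11g0226800 with a pseudocount of 0.1, no trend, voom and without mutant replicate 3 (0.043, 0.035, 0.038 and 0.033). The causes were not tested. Deviations of same-numbered libraries from their group means had correlations of -0.07 to 0.21, against -0.23 to 0.22 for other pairs of libraries. No pairing by number was thus seen, which does not show that there was none. With the replicate number as a block 16 members passed for OE against WT, 26 for the mutant against WT and 45 for the mutant against OE. With voom on recovered reads, chosen after seeing the data, 19, 27 and 45 passed. At these depths a group with 0 reads allows up to 3 reads over its libraries.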

Other observations

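Further members were chosen after their values were seen, and the first 2 of them had levels that differed within a genotype. Os11g0214700, next to the gene that OE lacks, had 34, 38 and 0 reads in the WT libraries, 0 in each OE library and 5, 0 and 0 in the mutant, so WT replicate 3 stood with OE. Os11g0210600 had 6, 101 and 12 reads in OE, 23, 8 and 3 in WT and 5, 11 and 21 in the mutant, with OE replicate 2 apart from the others. Of the members below the level tested, Os11g0206400 had 7, 11 and 7 reads in WT, 18, 15 and 19 in OE and 5, 7 and 7 in the mutant, so the OE libraries lay above the other 6. It was not alone in this, as Os11g0204500 and Os11g0208300 also had more reads in each OE library than in any other library. Near the gene that OE lacks, Os11g0214001 was at 18.7 FPKM in WT and 10.4 in OE, and Os11g0215100 at 13.4 and 4.78, and neither passed the threshold.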
